A study of Mus musculus with 2 samples.

Results

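The MHC class I presentation genes considered here are 10 genes that make, load or switch on the MHC class I molecule: H2-K1, H2-D1, H2-T23, B2m, Tap1, Tap2, Tapbp, Psmb8, Psmb9 and Nlrc5. They were taken by symbol from the deposited feature list, where each of the 10 stands once among 32286 features. The study profiled single leukocytes of the mouse heart in recipients of transplanted bone marrow (BMT) that was either control or LOY, which stands for loss of the Y chromosome. The control group was control marrow with TAC and the LOY group was LOY marrow with TAC, where TAC (transverse aortic constriction) is surgery that narrows the aorta and so raises the pressure the left ventricle works against; there was no group without TAC or without BMT. Each group was 1 library, made from left ventricle cells of 3 mice, sorted as viable CD45+ RFP+ and then pooled, and about 8000 cells went into each library. The labels give no strain, age or time after surgery, and they do not say how the loss of Y was made. With 1 library per group there is no replicate, so no difference has a test, and the mice within a pool cannot be told apart.

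MHC class I molecules show peptides from inside a cell to CD8 T cells, and their presence restrains NK cells. Proteasomes cut proteins into peptides, the TAP transporter carries the peptides into the endoplasmic reticulum, tapasin holds an empty heavy chain at the transporter until a peptide binds, and beta 2 microglobulin completes the molecule. Interferon gamma raises nearly the whole set, and the transactivator encoded by Nlrc5 acts on class I promoters through factors bound at short elements upstream of the start of transcription.

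The promoters of H2-K1, H2-D1 and B2m are shown because these 3 genes encode the classical heavy chains and the light chain that the results turn on. Sequences are from RefSeq on GRCm38.p6, the build that mm10 names, read 5′ to 3′ on the strand of the gene, and those of H2-K1 and B2m end at the base before the start of transcription. RefSeq promoters were found for 8 of the 10 genes. The 200 bases shown for H2-K1 lie at chr17:34000348-34000547 (minus strand) and those for B2m at chr2:122147487-122147686 (plus strand). For H2-D1 only 2 pieces of 30 bases are shown, at chr17:35262913-35262942 and chr17:35262993-35263022 (plus strand), since a GENCODE transcript of H2-D1 starts further upstream. Capitals mark matches, on either strand, to 5 searched motifs: GGGGA followed at once by TTCCC (kappa B of enhancer A), GAAA, any 2 bases and GAAA (interferon-stimulated response element), TGACGC (site alpha), ATTGG (Y box, read as CCAAT on the other strand) and TTCNNNGAA (gamma activated site).
H2-K1: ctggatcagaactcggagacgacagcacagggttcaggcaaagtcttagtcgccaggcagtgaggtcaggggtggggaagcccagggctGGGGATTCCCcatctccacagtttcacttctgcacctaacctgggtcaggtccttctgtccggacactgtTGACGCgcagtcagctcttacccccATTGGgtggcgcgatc
B2m: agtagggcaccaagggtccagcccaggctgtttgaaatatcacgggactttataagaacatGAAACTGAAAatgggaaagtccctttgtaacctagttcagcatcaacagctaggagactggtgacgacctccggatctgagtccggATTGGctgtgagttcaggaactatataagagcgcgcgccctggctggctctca
H2-D1 around kappa B: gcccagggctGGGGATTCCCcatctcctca
H2-D1 from site alpha to Y box: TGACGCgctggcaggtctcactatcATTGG
The H2-K1 and H2-D1 promoters, set side by side at the kappa B match without gaps, were identical at 127 of 140 bases (90.7%). In the 30-base pieces of H2-D1 shown, 29 bases around kappa B and 23 bases from site alpha to the Y box matched those of H2-K1. Both genes carried kappa B, site alpha and Y box matches in the same order, with 70 bases from the first base of kappa B to that of site alpha and 25 bases from site alpha to the Y box. In the 250 bases before the start, kappa B matched in 2 of the 8 promoters (H2-K1 and H2-D1), against 0.0852% of 32851 start sites. Site alpha matched in the same 2 promoters, against 6.12% of start sites. The interferon-stimulated response element matched in 2 (B2m and H2-T23), against 2.98%, the gamma activated site in 1 (Psmb8), against 7.02%, and the Y box in 7 of the 8, against 33.8%. A match says only that these letters stand in the window. Kappa B was searched as the string of enhancer A, so its matches beside the share of start sites are a description and no test of enrichment. The H2-K1 and H2-D1 promoters are near-identical (90.7%), so the matches they share are not independent. Psmb9 and Tap1 share their Y box match, which is the same site between their starts counted for both promoters. Only exact strings were searched, so the lack of a match does not mean that a related element is absent.

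The deposited values were raw UMI counts, a UMI being the tag that marks 1 captured transcript. The control library held 7276 barcodes with 42640861 UMIs and the LOY library 5475 barcodes with 18710715 UMIs. After filters and removal of likely doublets, 6577 control and 5177 LOY cells were kept, with a median of 5069 and 3006 UMIs per cell; 18 barcodes occurred among the kept cells of both libraries. At least 1 UMI of the Y-linked genes Ddx3y, Eif2s3y, Kdm5d or Uty was found in 1497 of 3007 control and 139 of 3314 LOY macrophage-like cells, in the direction of the labels. Ptprc, which encodes CD45, had a UMI in 84.4% of control and 73.8% of LOY cells, while the RFP sequence of the feature list had no UMI in any kept cell of either library, so the RFP gate could not be checked. The median share of mitochondrial UMIs in macrophage-like cells was 3.15% in control and 2.00% in LOY cells, and its part in the results was not tested.

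Cells were clustered without the 10 genes, so that their levels did not shape the groups. Of the 14 classes of cells obtained, 11 had at least 20 cells in each library. Of these, 7 were named from markers: macrophage-like (3007 control and 3314 LOY cells), monocyte-like (246 and 247), conventional dendritic cell-like (63 and 55), neutrophil-like (279 and 122), B cell-like (804 and 236), T cell-like (240 and 97) and NK cell-like (189 and 48). The other 4 were nearest to macrophages but had leading genes of another type, and are called by their first leading gene: the H2-Eb1 cluster (1145 and 212 cells, with the cardiomyocyte transcript Myl2 among its leading genes), the Cxcl10 cluster (330 and 609, led by interferon-stimulated genes and Ly6c2), the Cd209a cluster (205 and 168) and the Myl7 cluster (24 and 48, led by cardiomyocyte transcripts). The macrophage-like class was made of different clusters in the 2 libraries. Rgs1, Lyve1 and Cxcl13 clusters held 1148, 931 and 561 of its control cells, and Spp1, Fcna and Cyp4f18 clusters held 1487, 817 and 457 of its LOY cells. Where nearly all cells of a cluster come from 1 library, type and library cannot be told apart.

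In LOY macrophage-like cells the heavy chains, the light chain, 1 of the 2 transporter subunits and 1 of the 2 inducible proteasome subunits were lower than in the control library, while the remaining genes were level or close to it. Levels are in CPM, the gene's share of all UMIs of the class in that library, scaled to 1 common total, and are given with the LOY level as a percent of the control level and its 95% exact conditional interval, which covers counting error only. H2-D1, a classical heavy chain that presents peptide to CD8 T cells, stood at 3442 CPM (control) and 1572 CPM (LOY), which is 45.7% of the control level (45.0 to 46.4%). H2-K1, the other classical heavy chain, stood at 2292 and 1659 CPM, or 72.4% (71.2 to 73.6%). Both heavy chains were thus lower in the LOY library, and the gap was wider for H2-D1, whose interval lies wholly below that of H2-K1.

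H2-T23 encodes Qa-1, a nonclassical heavy chain recognised by NKG2 receptors of NK cells. It stood at 278 CPM (control) and 93.9 CPM (LOY) in macrophage-like cells, or 33.8% of the control level (31.7 to 36.0%). Among the last 500 bases of its transcript, where 3' kits read, 30.2% of 60-base windows also occur in transcripts of other genes (Rab33b, Hook2 and the pseudogene H2-T-ps among them), so its level is less certain than those of the rest. The share was 4.99% for H2-D1 and 0% for the 8 other genes. B2m, the light chain that every class I heavy chain needs at the surface, stood at 2882 CPM (control) and 1609 CPM (LOY), or 55.8% (54.9 to 56.7%).

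The 2 subunits of the TAP transporter, which work as a pair, did not stand alike. Tap1 was at 102 CPM in both libraries, 99.5% of the control level (92.8 to 107%), an interval that holds equality. Tap2 was at 52.9 CPM (control) and 18.0 CPM (LOY), or 34.1% (29.4 to 39.4%), from 1108 and 227 UMIs. Tapbp, which encodes tapasin, was at 148 and 169 CPM, or 114% (108 to 121%), and so was higher in the LOY library by less than 1.5-fold.

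Psmb8 and Psmb9 encode catalytic subunits that replace constitutive ones when the immunoproteasome is built. Psmb9 was at 259 CPM (control) and 125 CPM (LOY), or 48.3% of the control level (45.6 to 51.0%). Psmb8 was at 667 and 567 CPM, or 84.9% (82.5 to 87.4%). The difference was thus large for the first subunit and small for the second. Nlrc5, the transactivator, had few UMIs (334 control and 204 LOY) and stood at 15.9 and 16.2 CPM, or 102% (85.0 to 121%).

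With 10 CPM added to each level to damp low counts, and a difference counted when it passed 1.5-fold on that scale, 5 of the 10 genes were lower in LOY macrophage-like cells (H2-D1, B2m, H2-T23, Tap2 and Psmb9) and 0 were higher. Of the 7902 genes at 10 CPM or more in either library, 8.64% were lower and 6.57% higher by the same rule. The median log2 ratio of the 10 genes was -0.65, beside -0.04 for all measured genes. These are counts of 2 libraries with no replicate check. Cells thinned to 1000 UMIs each, and cells of 2000 to 6000 UMIs in both libraries, also gave 5 lower genes, as did every other alternative run. Genes that respond to tissue dissociation were lower in LOY macrophage-like cells for 17 of 18 listed genes, beside 8.64% of all measured genes. Within single clusters nearest to macrophages the count of lower genes varied, and the share of all measured genes lower is given in brackets. It was 3 in the H2-Eb1 (11.4%), 7 in the Lyve1 (13.8%) and Spp1 (20.0%) and 10 in the Rgs1 cluster (16.4%). It was 12 in the Fcna (11.5%) and 14 in the Cxcl10 (13.4%) and Cxcl13 (23.4%) clusters. The largest counts were 15 in the Cd209a (17.4%) and Hist1h1b (11.6%) and 17 in the Myl7 cluster (28.8%). Higher were 3 in the H2-Eb1 (beside 7.89%), 2 in the Lyve1 (7.6%) and 1 in the Spp1 cluster (14.5%). In the other named classes genes of this list were lower too. The counts were 12 of 17 in B cell-like (22.2%), 13 of 18 in T cell-like (19.1%) and 11 of 18 in NK cell-like cells (29.1%). They were 13 of 18 in conventional dendritic cell-like (21.4%) and 8 of 18 in monocyte-like (14.2%) and neutrophil-like cells (23.6%). At most 3 were higher, in neutrophil-like cells (beside 21.1%). Whether dissociation had a part in the differences was not tested.

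**Figure D1:**
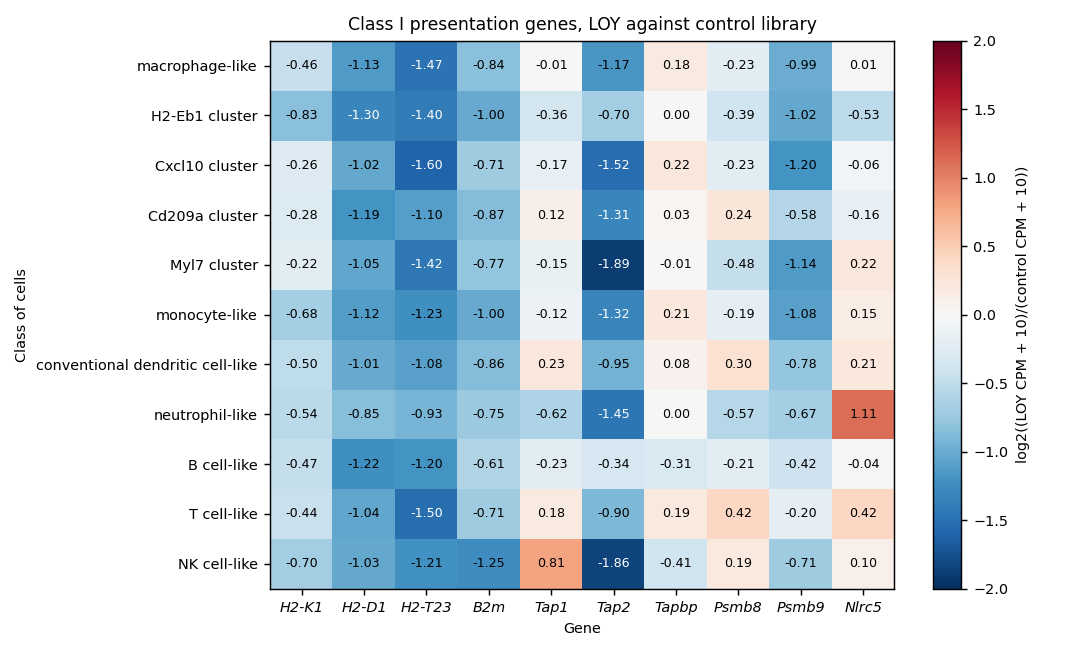
Log2 ratio of the LOY to the control level (10 CPM added to each) for the 10 genes in columns and the 11 classes of cells in rows; blue is lower and red higher in the LOY library. The columns of H2-D1, H2-T23 and B2m are blue in all 11 rows, whereas those of Tap1, Tapbp and Nlrc5 hold both colours, most of them pale.

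Counted by class, the number of lower genes stood above the share of all measured genes in each class, though that share was itself large where cells were few. In what follows each class is given with its lower and higher genes of the 10, and then the percent of all measured genes lower and higher there. The H2-Eb1 cluster had 6 lower and 0 higher (11.4% and 7.89%), the Cxcl10 cluster 5 and 0 (13.4% and 7.33%), the Cd209a cluster 4 and 0 (17.4% and 9.72%) and the Myl7 cluster 5 and 0 (28.8% and 23.5%). Monocyte-like cells had 6 and 0 (14.2% and 7.24%). Neutrophil-like cells had 6 and 1 (23.6% and 21.1%), and in conventional dendritic cell-like cells the counts were 5 and 0 (21.4% and 14.7%). B cell-like cells had 3 and 0 of the 9 genes measured there (22.2% and 9.41%), Nlrc5 being under 10 CPM in both libraries. T cell-like cells had 4 and 0 (19.1% and 17.7%) and NK cell-like cells 6 and 1 (29.1% and 18.0%). The median log2 ratio ran from -0.84 in monocyte-like to -0.32 in T cell-like cells. That of monocyte-like cells was -0.29 when cells with over 5% mitochondrial UMIs were left out and the cells clustered again.

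The same genes were lower in nearly every other class, as the heat map of ratios by class shows. H2-D1, B2m and H2-T23 were over 1.5-fold lower in all 11 classes, each with an interval below the control level. H2-D1 ranged from 40.3% of the control level in the H2-Eb1 cluster to 55.2% in neutrophil-like cells. B2m ranged from 41.9% in NK cell-like to 65.5% in B cell-like cells. H2-T23 ranged from 31.8% in the Cxcl10 cluster to 50.3% in neutrophil-like cells, so lymphocytes and granulocytes showed the difference as macrophages did. H2-K1 was below the control level in all 11 classes by its interval, from 56.1% in the H2-Eb1 cluster to 86.1% in the Myl7 cluster. It passed 1.5-fold in only 3 of them: the H2-Eb1 cluster, monocyte-like and NK cell-like cells. H2-D1 stayed past 1.5-fold in all 11 classes under every alternative processing run, and its smallest log2 ratio was -0.78. B2m fell short of 1.5-fold in B cell-like cells under 6 of 13 alternatives (at the least -0.42, with cells of at least 1000 UMIs), and under 1 alternative each in the Myl7 cluster (-0.53) and monocyte-like cells (-0.51). H2-T23 fell short of it in neutrophil-like cells under 2 of 13 (at the least -0.42). H2-K1 in monocyte-like cells came to -0.07 when cells with over 5% mitochondrial UMIs were left out.

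Tap2 was over 1.5-fold lower in 10 of the 11 classes, B cell-like cells being the exception, and its interval lay below the control level in 8. Its lowest values rest on few UMIs. In NK cell-like cells it had 77 UMIs in the control (94.9 CPM) and 2 in the LOY library (18.9 CPM), or 19.9% of the control level with an interval of 2.37 to 74.5%. Psmb9 was over 1.5-fold lower in 8 classes, from 42.5% of the control level in the Cxcl10 cluster to 86.4% in T cell-like cells, where the interval (60.6 to 121%) holds equality. Psmb9 stood at 73.5% (48.1 to 108%) in B cell-like and 60.0% (35.5 to 95.8%) in NK cell-like cells. The intervals of these lymphocyte classes overlap, so a difference among them is not resolved. With cells thinned to 1000 UMIs no Tap2 UMI was left in the Myl7 cluster in either library, so that its ratio could not be read there. The log2 ratio of Tap2 was then -0.22 in T cell-like and -0.28 in neutrophil-like cells, and that of Psmb9 -0.31 in NK cell-like and -0.48 in conventional dendritic cell-like cells. These fell short of 1.5-fold, from few cells (27 LOY neutrophil-like and 38 LOY NK cell-like cells remained). With doublets kept, Psmb9 in neutrophil-like cells came to -0.38. Tap2 in the H2-Eb1 cluster ended under 1.5-fold in 3 of 8 alternatives (at the least -0.41, with 50 CPM added).

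Tap1, Tapbp, Psmb8 and Nlrc5 did not move in 1 direction across classes. Tap1 had an interval that holds equality in 9 classes. It was over 1.5-fold higher in NK cell-like cells, at 104 CPM (control) and 189 CPM (LOY) (183%, 106 to 300.4%, from 84 and 20 UMIs). It was over 1.5-fold lower in neutrophil-like cells, at 115 and 71.6 CPM (62.1%, 27.3 to 124%, from 74 and 9 UMIs), at the least -0.37 among the alternatives, and the counts of both classes are small. Tapbp passed 1.5-fold in no class and was above the control level by its interval in 2, macrophage-like cells and the Cxcl10 cluster.

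Psmb8 passed 1.5-fold in no class, but its interval lay below the control level in 6 classes and above it in 3. The 3 were T cell-like cells, at 792 CPM (control) and 1060.2 CPM (LOY) (134%, 115 to 155%), conventional dendritic cell-like cells (123%, 111 to 136%) and the Cd209a cluster (118%, 108 to 129.5%). In neutrophil-like cells it was at 358 and 239 CPM (66.6%, 43.9 to 97.7%). Nlrc5 had an interval that holds equality in all 11 classes. Its 1 ratio past 1.5-fold, in neutrophil-like cells (340.4%, 70.7 to 1436%), rests on 6 control and 4 LOY UMIs and came to a log2 ratio of 0.46 with 50 CPM added.

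**Figure D2:**
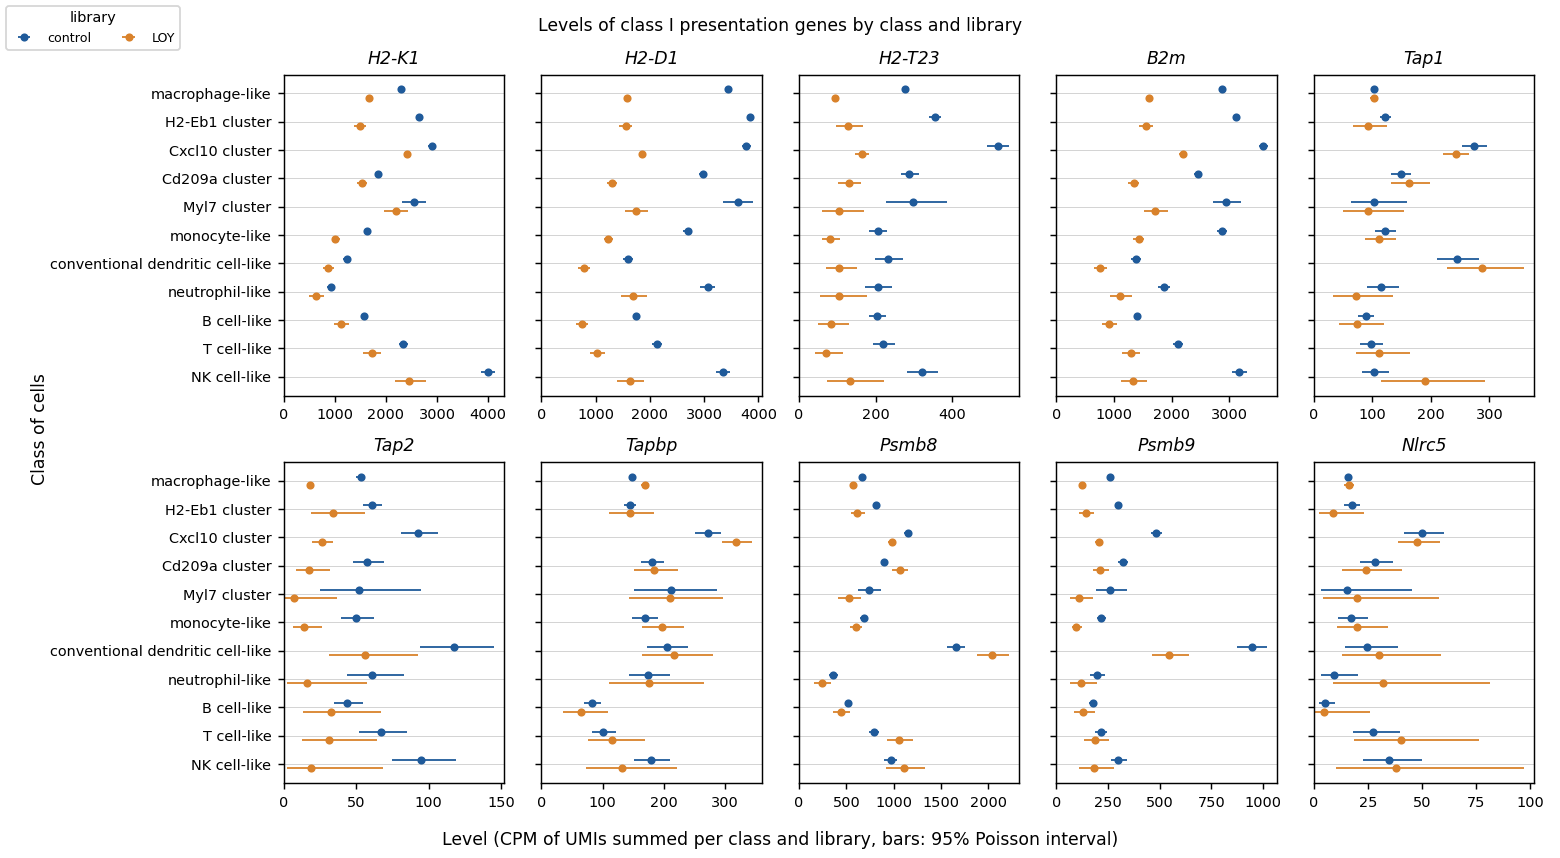
Level of each of the 10 genes in CPM (horizontal axes, each from 0) in the 11 classes of cells, blue for the control and orange for the LOY library, with 95% Poisson intervals as bars. Orange points of H2-D1, H2-T23 and B2m lie left of the blue ones in every class, and conventional dendritic cell-like cells stand out to the right for Psmb8 and Psmb9.

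Levels also differed between classes within each library, and the plot of levels by class and library shows the order. H2-K1 was highest in NK cell-like cells, at 3998 CPM (control) and 2459.7 CPM (LOY), followed by the Cxcl10 cluster at 2895 and 2422 CPM. It was lowest in neutrophil-like cells, at 921 and 629 CPM. The first 2 classes did not overlap in the control library by their intervals, whereas in the LOY library 7 of the 10 neighbouring pairs in the order of classes overlapped. H2-D1 was highest in the H2-Eb1 cluster in the control library (3846 CPM) and in the Cxcl10 cluster in the LOY library (1859 CPM), in both cases with an interval that overlaps that of the next class. It was lowest in conventional dendritic cell-like cells in the control library (1588 CPM) and in B cell-like cells in the LOY library (739.6 CPM).

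B2m and H2-T23 were highest in the Cxcl10 cluster, which is led by interferon-stimulated genes. B2m stood there at 3597 CPM (control) and 2191 CPM (LOY), and H2-T23 at 519 and 165 CPM. In the LOY library all 10 neighbouring pairs of classes overlapped for H2-T23, so its order there is not resolved. B2m was lowest in conventional dendritic cell-like cells, at 1386 and 759 CPM, with intervals that overlap those of B cell-like cells (1405 and 920 CPM) in both libraries. Nlrc5 was also highest in the Cxcl10 cluster, at 50.1 and 47.8 CPM, and lowest in B cell-like cells, at 5.08 and 4.62 CPM. All 10 neighbouring pairs of classes overlapped in their intervals for Nlrc5 in each library, so its order between neighbours is not resolved at these counts.

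The genes of peptide supply had another order. Psmb8 was highest in conventional dendritic cell-like cells, at 1658 CPM (control) and 2042 CPM (LOY), and lowest in neutrophil-like cells, at 358 and 239 CPM. Psmb9 was likewise highest in conventional dendritic cell-like cells, at 946 and 546 CPM. The highest values of Tap2 (117 and 56.1 CPM) and, in the LOY library, of Tap1 (288 CPM) were found there too, but all 10 neighbouring pairs of classes overlapped for Tap2 in each library and for Tap1 in the LOY library, so these orders are not resolved. In the control library Tap1 was highest in the Cxcl10 cluster, at 273 CPM, beside 244 CPM in conventional dendritic cell-like cells, with overlapping intervals. As shares of UMIs, dendritic cells, which prime T cells, therefore combined the highest levels of both inducible subunits with a level of B2m that only B cell-like cells approached. They also held the most UMIs per cell of the classes compared (median 11620 in control and 4880 in LOY cells). Amounts per cell may thus rank otherwise. Tapbp was highest in the Cxcl10 cluster, at 272 and 319 CPM, and lowest in B cell-like cells, at 82.4 and 64.7 CPM.

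Across the 11 classes of the control library, H2-D1 and B2m levels rose and fell together (Pearson r = 0.894), as did those of Psmb8 and Psmb9 (0.880) and of Tap1 and Psmb9 (0.864). H2-D1 and Psmb9 did not (-0.18). The same pairs gave 0.807, 0.833, 0.817 and -0.43 in the LOY library. These correlations are descriptions over 11 classes that share a library and its depth.

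**Figure D3:**
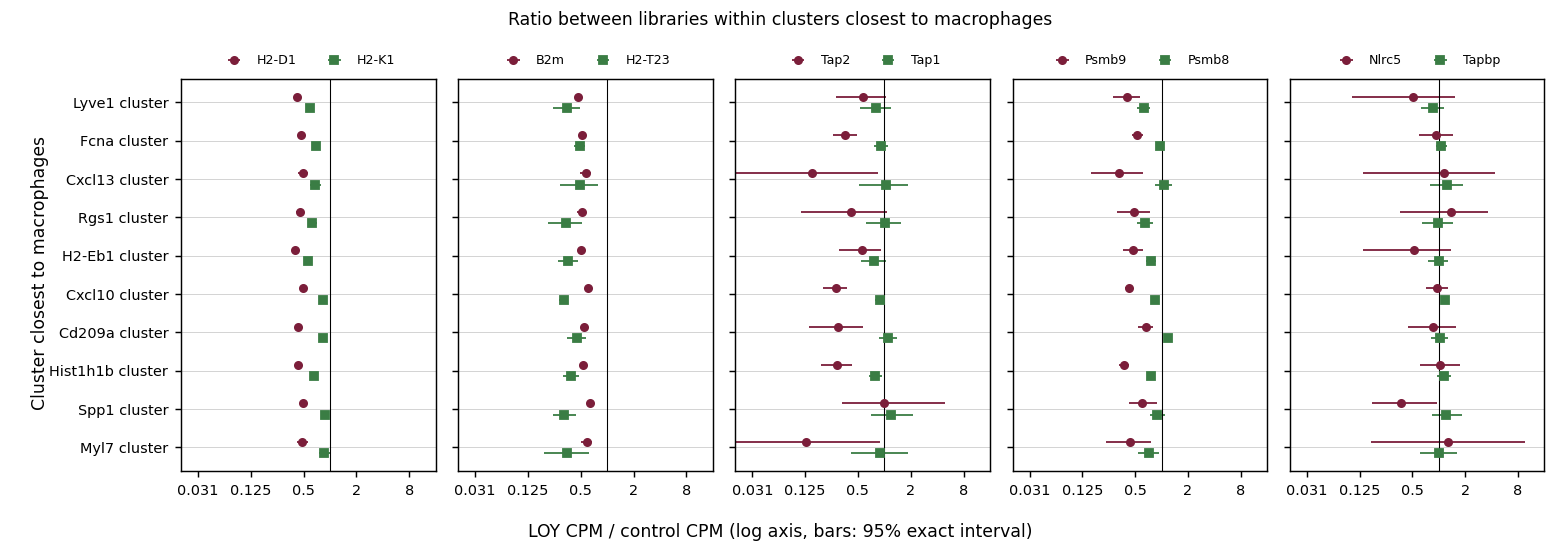
LOY level over control level (horizontal log axes, the line at 1 marks equality) with 95% exact intervals for pairs of genes, in the 10 clusters nearest to macrophages that had at least 20 cells in each library. H2-D1, B2m and H2-T23 lie left of the line in all 10 clusters and Tap1 and Tapbp near it; the Tap2 intervals of the Cxcl13 and Myl7 clusters go beyond the left edge.

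Because the macrophage-like class was made of different clusters in the 2 libraries, the ratios were also taken within clusters. Of 11 clusters nearest to macrophages, 10 had at least 20 cells in each library; the Cyp4f18 cluster, with 11 control cells, did not. The ratio plot by macrophage cluster shows H2-D1 over 1.5-fold lower in all 10, within 40.3 to 49.7% of the control level. The share of all measured genes lower in these clusters ran from 11.4% in the H2-Eb1 cluster to 28.8% in the Myl7 cluster, and was 13.8% in the Lyve1, 11.5% in the Fcna, 20.0% in the Spp1, 11.6% in the Hist1h1b, 16.4% in the Rgs1 and 23.4% in the Cxcl13 cluster. B2m was lower in all 10 (46.8 to 63.7%), as was H2-T23 (31.8 to 49.5%). The differences of these 3 genes were therefore present among cells of the same cluster and not only between clusters.

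In the Lyve1 cluster, which shares Lyve1, Folr2 and Gas6 with resident cardiac macrophages and held 931 control and 120 LOY cells, H2-D1 was at 3473 and 1476 CPM (42.5%, 38.8 to 46.4%). In the Fcna cluster (182 and 817 cells) it was at 3316 and 1532 CPM (46.2%, 44.5 to 48.0%). In the Spp1 cluster, with Spp1, Trem2 and Fabp5 among its leading genes (35 and 1487 cells), it was at 3505 and 1704 CPM (48.6%, 44.9 to 52.7%). The 3 clusters had near levels of H2-D1 within a library.

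H2-K1 was lower in all 10 clusters by its interval and past 1.5-fold in 4, from 56.1% of the control level in the H2-Eb1 cluster to 88.5% in the Spp1 cluster. Psmb9 was over 1.5-fold lower in 9 clusters and lower by its interval in all 10. Tap2 was over 1.5-fold lower in 9 clusters and lower by its interval in 7. The exception for Tap2 was the Spp1 cluster, where it stood at 15.6 CPM in the control, from 3 UMIs, and 15.5 CPM in the LOY library (99.0%, 32.6 to 491%). Tap1 and Tapbp passed 1.5-fold in 0 of the 10 clusters, Psmb8 was lower in 2 and Nlrc5 in 1 (the Spp1 cluster, from 7 control UMIs).

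**Figure D4:**
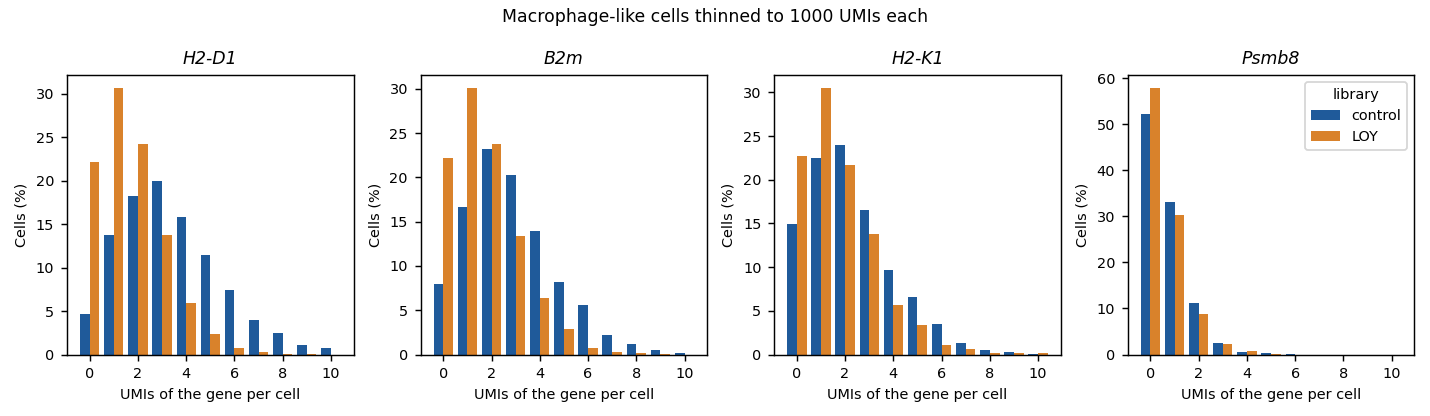
Share of macrophage-like cells (vertical axes, percent) with 0 to 10 UMIs of H2-D1, B2m, H2-K1 or Psmb8 after each cell was thinned to 1000 UMIs, blue for the control and orange for the LOY library. The whole LOY distribution of H2-D1 and B2m sits at lower counts, with 1 UMI as the most frequent value, while the Psmb8 distributions lie close to each other.

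The difference was spread over most cells. After each macrophage-like cell was thinned to 1000 UMIs, which left out 15 control and 46 LOY cells of lower depth, H2-D1 had a median of 3 UMIs per control cell (quartiles 2 and 5) and 1 per LOY cell (quartiles 1 and 2). At least 1 H2-D1 UMI was found in 95.4% of control cells (94.6 to 96.1%, Clopper-Pearson) and 77.9% of LOY cells (76.4 to 79.3%). Before thinning the shares were 99.9% and 97.4%, so nearly all cells of both libraries held H2-D1 transcripts. No class here should lack class I transcripts, so there is no class that shows the level of free RNA.

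B2m had a UMI in 92.0% of thinned control and 77.8% of thinned LOY cells. H2-K1 had one in 85.1% and 77.3%, and H2-T23 in 23.8% and 9.45%. Tap1 moved little, with 9.26% of control and 10.4% of LOY cells, and Tapbp stood at 14.2% and 15.8%. Psmb8 had a UMI in 47.9% of control and 42.1% of LOY cells, and Psmb9 in 20.4% and 11.1%.

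The LOY library held 139 macrophage-like cells with a Y-linked UMI, at a median of 4603 UMIs, beside 3175 without, at 3255. H2-D1 stood at 1517 CPM (1429 to 1609, 95% Poisson interval) in cells with a Y-linked UMI and at 1576 CPM (1553 to 1599) in cells without. B2m stood at 1476 and 1617 CPM, H2-K1 at 1502 and 1668 CPM, and H2-T23 at 81.4 and 94.7 CPM. For B2m (1388 to 1567 against 1594 to 1640) and H2-K1 (1414 to 1594 against 1645 to 1692) the intervals did not overlap, nor did those of Psmb8 (449 to 554 against 557 to 585). Both sets of LOY cells stood below the H2-D1 levels of the control library, where cells with and without a Y-linked UMI were at 3404 and 3491 CPM. Tap2 was at 26.2 CPM (15.8 to 41.0) in LOY cells with a Y-linked UMI and 17.5 CPM (15.2 to 20.1) in those without. With each cell thinned to 1000 UMIs, H2-D1 stood at 1664 CPM (1455 to 1895) in 137 LOY cells with a Y-linked UMI and 1620 CPM (1576 to 1665) in 3131 without. The thinned intervals of B2m, H2-K1 and Psmb8 overlapped as well, at wider counting error. A Y-linked UMI occurred in 4.19% of LOY macrophage-like and 3.84% of all kept LOY cells, no class shows its background level, and whether it came from the cell itself was not tested. A cell with no Y-linked UMI may still carry the chromosome, as 1510 of 3007 control macrophage-like cells had none.

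Other genes of the pathway were read from further gene lists, with the share of all measured macrophage genes lower (8.64%) or higher (6.57%) as background. Of 8 measured genes among 14 other class I and class I-like heavy chains, 6 were over 1.5-fold lower and 0 higher, with a median log2 ratio of -0.90. H2-M3, which presents formylated peptides, stood at 136 CPM (control) and 27.9 CPM (LOY), and H2-M2 at 14.4 and 1.51 CPM. H2-Q7, a Qa-2 heavy chain, stood at 296 and 208 CPM and did not pass 1.5-fold. H2-T24 stood at 11.6 and 14.8 CPM. In each of the 11 classes at least 3 of the measured genes of this list were lower. The lowest counts were 3 of 7 in B cell-like (beside 22.2% of all measured genes) and 3 of 6 in neutrophil-like cells (23.6%). Heavy chain genes of the Q and T regions resemble each other, so reads may be split between them.

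Genes of peptide loading and trimming did not share the difference. Of 9 measured, 1 was lower and 0 higher, with a median of 0.21. The 1 lower gene was Tapbpl, a tapasin relative that edits peptides, at 26.6 and 14.1 CPM. Calr, a chaperone of the loading complex, stood at 549.5 and 715 CPM, Hspa5, an endoplasmic reticulum chaperone, at 605 and 749 CPM, and Lnpep, an aminopeptidase, at 87.7 and 74.1 CPM.

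Among the third inducible subunit and the proteasome activator, 1 of 6 was lower and 0 higher (median -0.08). Psmb10, the third inducible catalytic subunit, stood at 194 CPM (control) and 266 CPM (LOY), unlike Psmb9. Psme1 and Psme2, which form the activator cap, stood at 308 and 361 CPM and at 168 and 151 CPM. Psme2b, at 13.3 and 3.97 CPM, was the lower one. Of the 3 constitutive catalytic subunits, 1 was higher: Psmb6, the subunit that Psmb9 replaces, at 199 and 338 CPM. Psmb5, which Psmb8 replaces, stood at 162 and 247 CPM, just under 1.5-fold on the damped scale, and Psmb7 at 86.3 and 68.7 CPM.

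Of 18 measured regulators of class I transcription, 2 were lower and 0 higher (median -0.06). The 2 were Irf1, an interferon gamma response factor, at 97.8 and 54.5 CPM, and Nfkb1, a subunit of the factor that binds kappa B, at 91.3 and 52.0 CPM. Rfxank, a part of the complex with which Nlrc5 acts, stood at 11.4 CPM (control) and 15.8 CPM (LOY). Interferon-stimulated genes without a class I role went the other way from the heavy chains: 7 of 16 were higher and 1 lower (median 0.47). Within the clusters of this class the list did not keep that direction. In the Fcna cluster 8 of 15 were higher and 1 lower (median 0.72), beside 4.67% and 11.5% of all measured genes. In the Lyve1 cluster 7 of 15 were lower and 1 higher (median -0.51), beside 13.8% and 7.6%. Irf7 stood at 169 and 359 CPM and Rsad2 at 47.1 and 111 CPM, while Oas1a (26.7 and 13.5 CPM) and Iigp1 (93.6 and 60.9 CPM) stood at the other end.

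The interferon list differed in direction between classes too. In T cell-like cells 10 of 15 measured genes of the list were higher and 1 lower, beside 17.7% of all measured genes higher. In the Cxcl10 cluster 7 of 17 were lower and 1 higher, beside 13.4% and 7.33% of all measured genes. In neutrophil-like cells 7 of 13 were lower and 0 higher, beside 23.6% and 21.1%. H2-D1, B2m and H2-T23 were lower in all 3 classes. MHC class II genes were lower in macrophage-like cells for 7 of 8 measured (median -1.53), with H2-Aa at 8119.8 and 1294 CPM. In B cell-like cells, by contrast, 0 of 10 class II genes were lower and 1 was higher, beside 22.2% and 9.41% of all measured genes. H2-D1 there was at 42.5% of its control level. Whether these class differences exceed the error between mice could not be tested with 1 library per group.

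Of the 12 genes that every cell uses, 4 of 11 measured were lower and 2 higher in macrophage-like cells, beside 8.64% and 6.57% of all measured genes. They ran from Ubb at 1939 and 769 CPM to Actb at 10855 and 22147 CPM. Their median log2 ratio was -0.47, beside -0.65 for the 10 genes. In B cell-like (-0.56) and T cell-like cells (-0.51) their median was lower than that of the 10 genes (-0.42 and -0.32). In each other class the median of the 10 genes was the lower one. With CPM scaled by the edgeR TMM factor, which trims the genes that differ most, the median log2 ratio of the 10 genes in macrophage-like cells was -0.62 and 5 genes counted as lower. Of the list of receptors that bind class I, Pirb and Lilrb4a were measured in macrophage-like cells. Lilrb4a was listed with Pirb, but class I binding is not claimed for it here. They stood at 233 and 178 CPM and at 354 and 286 CPM, and neither passed 1.5-fold.

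**Figure D5:**
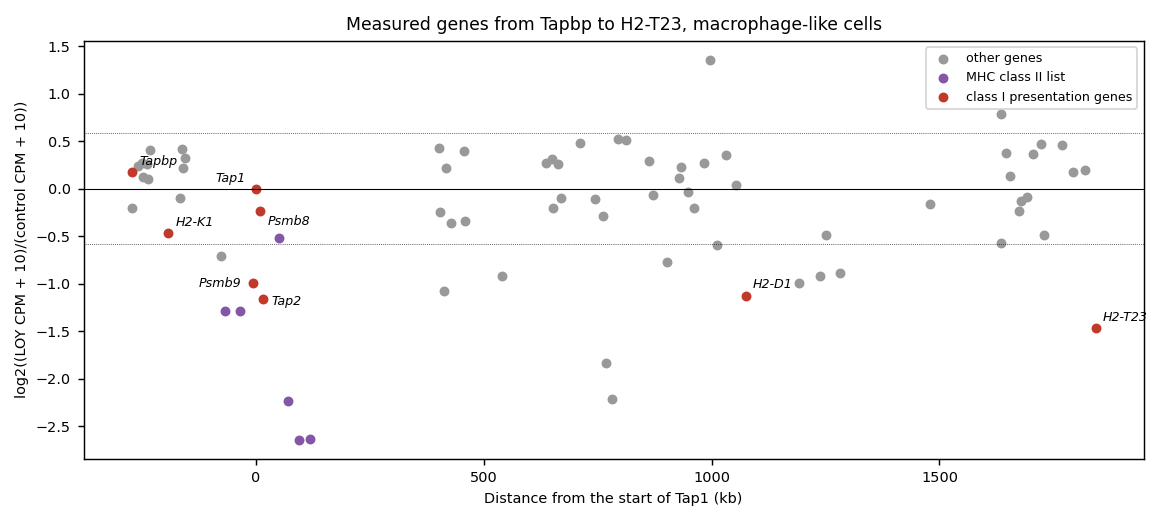
Log2 ratio of the LOY to the control level (10 CPM added to each) in macrophage-like cells for the 76 measured genes from Tapbp to H2-T23, against distance from the start of Tap1 in kb; red marks the class I presentation genes, violet the MHC class II list and grey other genes, and dotted lines mark 1.5-fold. Lower and level class I genes lie side by side, with Psmb9, Tap1, Psmb8 and Tap2 adjoining near 0 kb.

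In the genome 8 of the 10 genes lie in the MHC on chromosome 17, within chr17:33915899-36032855 on mm10 by GENCODE M21 (2117 kb). Tapbp lies at chr17:33915899-33929292, H2-K1 at chr17:33996017-34000347, H2-D1 at chr17:35262730-35267499 and H2-T23 at chr17:36029773-36032855. Psmb9 (chr17:34181987-34187764), Tap1 (chr17:34187553-34197225), Psmb8 (chr17:34197721-34201454) and Tap2 (chr17:34203527-34216321) adjoin. B2m lies at chr2:122147686-122153083 and Nlrc5 at chr8:94434356-94527272, and all 10 are protein-coding.

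The 4 adjoining genes had log2 ratios of -0.99, -0.01, -0.23 and -1.17 in that order, as the plot of the MHC region shows. The RefSeq starts of Psmb9 and Tap1, which are read away from each other, enclose 225 bases. Of the searched motifs that stretch held a Y box match alone, though only exact strings were searched and related sites may be missed. Genes that share this stretch stood apart, with Psmb9 over 1.5-fold lower and Tap1 level. Of the 68 other measured genes of the region, 15 were lower and 2 higher, with a median of -0.05, beside 8.64% lower and 6.57% higher over all measured genes. Among them 5 of 6 class II genes were lower. The remaining 62 had 10 lower and 2 higher and a median of 0.11. Those 10 include H2-Q4, H2-Q6 and H2-Q10 of the other heavy chain list and Hspa1a and Hspa1b of the dissociation list. Lower genes were thus more frequent among the 62 than over all genes, with genes of these lists among the lower ones. The median of the 68 stood below 0 and that of the 62 above it.

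Over the 22 class and library combinations, 8114 genes were ranked by the Pearson correlation of their log2 level with the mean of the 10 genes. The 5 most alike were BC147527 (r = 0.88), Tent2 (0.83), Psma5 (0.83), Myl12a (0.83) and Stt3a (0.81). BC147527 ranged from 2.26 to 125 CPM over the classes of the control library and from 0 to 46.8 CPM over those of the LOY library. Within the control library alone its r was 0.92 over 11 classes, and within the LOY library 0.88. For Tent2 the corresponding values were 0.72 and 0.68, lower than over both libraries. The combinations share 2 libraries that differ in depth, so these values describe likeness and carry no test.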

How the data were processed

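Single leukocytes of the left ventricle were profiled by droplet sequencing in 1 library from control marrow recipients and 1 from LOY marrow recipients, both after TAC. The deposited matrices hold raw UMI counts, whole numbers for each gene in each barcode; the submitters' processing notes name Cell Ranger 5.0.0 and mm10. The counting of intronic or multi-mapping reads, the gene annotation's release and how barcodes were filtered are not given in the sources used here. The 10 genes, gene lists and markers were chosen with earlier results of these data known.

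Kept cells had 500 UMIs and 200 genes or more, and a mitochondrial share of 10% or less. The highest scrublet scores were removed as doublets at 0.8% per 1000 barcodes (424 control and 240 LOY barcodes), because the automatic threshold marked 84 and 0. Clustering in scanpy 1.11.5 (Python 3.11.15, 2000 variable genes, 30 principal components, 15 neighbours, Leiden resolution 1, seed 0) left out class I genes, sex-linked genes (Xist and 4 on Y), genes of mitochondria, ribosomal proteins and haemoglobin, and antigen receptor genes. A cluster took the type with the largest share of its markers detected in at least 25% of cells, given 3 or more such markers and no more markers of another type than its own among its 10 leading genes; otherwise it is called by its first leading gene.

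For each class the UMIs of a library were added up and scaled to CPM, since cells of 1 library are not replicates. Ratios carry exact conditional intervals and levels exact Poisson intervals (95%), and both cover counting error only. A gene was measured where the higher of its levels reached 10 CPM, and counts as lower or higher past 1.5-fold after 10 CPM was added. The classes compared hold 6532 control and 5156 LOY cells; 45 and 21 cells in 3 smaller classes were not compared. The ratio computation was checked on simulated counts. Named were all 10 genes, the 2 highest and 2 lowest log2 ratios in macrophage-like cells of each other list, and the 5 genes most alike, except for 1 gene whose values are not reported here; H2-Aa, Ubb and Actb stand at the ends of their lists. Alternatives covered scaling (edgeR 4.0.16 for TMM factors), pseudocount, cell filters, doublets, clustering and depth. Adding the numbered clusters nearest to macrophages and leaving out the shared barcodes were chosen after seeing the data.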

Additional observations from a re-analysis of the deposited data

Results flagged for a closer look

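A pair of genes went one way in one class of cells and the other way in another class, with 1 library per group and therefore no sample that could go against the rest. Tap1, a subunit of the peptide transporter, had a log2 ratio of LOY to control of 0.81 in NK cell-like cells and -0.17 in the Cxcl10 cluster. Psmb8, an inducible proteasome subunit, had a log2 ratio of 0.42 in T cell-like cells and -0.57 in neutrophil-like cells. Each of the 4 intervals lay on 1 side of equality by counting error alone, and these differences between classes were not tested. The NK cell-like value of Tap1 rests on 20 LOY UMIs in 48 cells.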

How the results depend on the processing

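No paired analysis was possible because each group is 1 library and no result comes from a test. H2-D1 kept its direction and stayed past 1.5-fold in all 11 classes under all alternatives, and macrophage-like cells had 5 lower genes under all 15. The median log2 ratio of the 10 genes in macrophage-like cells (-0.65) was -0.61 with mean per-cell CPM, -0.53 with 50 CPM added, -0.72 with at least 1000 UMIs, -0.69 with at most 5% mitochondrial UMIs, -0.67 at resolution 0.5, -0.68 with libraries clustered apart, -0.69 with class I genes in the clustering and -0.61 with thinned cells. In monocyte-like cells (-0.84) it was -0.65 with 50 CPM added, -0.56 with at least 1000 UMIs, -0.29 with at most 5% mitochondrial UMIs, -0.58 with doublets kept and -1.06 in cells of 2000 to 6000 UMIs. In the Cxcl10 cluster it was -0.37 after TMM scaling, -0.75 with thinned cells and -0.61 in cells of 2000 to 6000 UMIs. The number of higher genes became 0 in neutrophil-like cells with 50 CPM added, and 1 in T cell-like cells (mean per-cell CPM, thinned), monocyte-like cells (at least 1000 UMIs, at most 5% mitochondrial UMIs, thinned), the Cd209a cluster (thinned, 2000 to 6000 UMIs) and conventional dendritic cell-like cells (thinned). It was 2 in T cell-like cells of 2000 to 6000 UMIs. Tap2 in the Myl7 cluster came to 0 with thinned cells because no Tap2 UMI was left in either library, so this value is no measured change. The cause of the other changes was not tested. Without the filter on low genes, 3.95% of genes were lower and 3.02% higher in macrophage-like cells. Settings that clustered anew gave values for named classes only, without NK cell-like cells when libraries were clustered apart and for 4 classes at resolution 0.5; cells of 2000 to 6000 UMIs gave 6 classes. LOY cells were shallower, and NK cell-like cells (48) and conventional dendritic cell-like cells (55) limit what can be seen for Tap2 and Nlrc5.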

Other observations

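Genes next to the 10 in the pathway held their direction across classes in 3 further cases. H2-M3, the heavy chain for formylated peptides, had a lower level in the LOY library in all 10 classes where it was measured. Its interval lay below equality in 9 classes, B cell-like cells not among them. H2-M3 ran from 66.6 CPM (control) and 37.0 CPM (LOY) in B cell-like cells to 55.6 and 4.64 CPM in monocyte-like cells, and NK cell-like cells had 81.3 CPM and no UMI. Psmb6, the constitutive subunit whose place Psmb9 takes, was higher in the LOY library in all 11 classes, with an interval above equality in 10, the exception being NK cell-like cells (240 and 322 CPM). It stood at 176 and 343 CPM in T cell-like, 159 and 273 CPM in B cell-like and 45.2 and 135 CPM in neutrophil-like cells. Psmb10, the third inducible subunit, was also above the control level in all 11 classes, with an interval above equality in 7, and stood at 344 and 624 CPM in NK cell-like cells. Psmb9 and Psmb10, both inducible subunits, thus stood on opposite sides of the control level in macrophage-like cells.

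MHC class II genes, which present peptides to CD4 T cells, varied in count from class to class. In the Cxcl10 cluster 5 of 7 measured were lower (median log2 ratio -0.82, beside 13.4% of all measured genes) and in the Myl7 cluster 7 of 9 (-2.39, beside 28.8%). In conventional dendritic cell-like cells 2 of 10 were lower (-0.28), near the 21.4% of all measured genes there. In monocyte-like cells 0 of 8 were lower and 1 was higher (0.18, beside 14.2% lower and 7.24% higher), and in neutrophil-like cells 1 was lower and 3 were higher (0.30, beside 23.6% and 21.1%). Genes listed as receptors that bind class I are mostly those of NK receptors, and Klra8 is also an NK marker here. A place on the list does not mean that each receptor binds class I. The list also holds Cd8a, a T cell marker here, and Cd8b1, a leading gene of the T cell-like cluster. Its genes were lower for 6 of 10 measured in NK cell-like cells (median -0.84, beside 29.1% of all measured genes lower). In T cell-like cells 6 of 10 were higher (median 0.78, beside 17.7% higher).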
